A study of Mus musculus with 24 samples.

Results

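The genes examined here encode the protein subunits of the cytosolic ribosome, the particle that translates messenger RNA in the cytoplasm. They were taken by symbol, as genes named Rpl or Rps followed by a number, the stalk genes Rplp0, Rplp1 and Rplp2, and Rpsa, each with at least 1 probe set that carries exactly 1 gene symbol. This gave 62 of the 19937 genes of the arrays, and 61 of the 62 were bright enough to be tested. Symbols with another ending that mark S6 kinases, a binding protein or pseudogenes were left out. The rule itself uses symbols and no measured value. A further 20 ribosomal protein symbols, Rpl3 and Rpl11 among them, lie only on probe sets shared with other symbols and were not analysed here.

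RNA of the plantaris, a calf muscle that extends the ankle, was measured in 24 mice aged 3 months on whole-transcript arrays, with 1 array per mouse and 6 biological replicates in each of 4 groups. The groups were untreated wildtype mice, overloaded wildtype mice, untreated Mstn-/- mice and overloaded Mstn-/- mice. Mstn-/- mice lack working myostatin, a secreted inhibitor of muscle growth. In the overloaded mice the soleus and most of the gastrocnemius of both legs had been cut out under pentobarbitone anaesthesia, so that the plantaris bore their load, while untreated mice had no operation, so the surgery itself and the load cannot be told apart. The duration of the load is not stated in these sources.

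The mature ribosome joins a small subunit, which holds the messenger RNA and reads its codons, to a large subunit, which forms peptide bonds and releases the chain through an exit tunnel. Most of the protein genes carry a run of pyrimidines at the start of their transcripts, the terminal oligopyrimidine or TOP motif, through which mTORC1, the growth kinase of the cell, controls how strongly they are translated. Making ribosomes is among the costliest tasks of a growing muscle fibre, and skeletal and heart muscle also have a subunit of their own, Rpl3l, a paralog of the general large-subunit protein Rpl3.

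Start sites of these genes are shown because a pyrimidine run is the feature by which the group is known. Of the 62 genes, 50 had a window of 250 bases before to 50 bases after an annotated start in the RefSeq table of build GRCm38.p6, 59 windows in all. A run of at least 8 C or T letters was sought on the coding strand, within 50 bases of the start. This strand has the letters of the transcript. Such a run was present in 42 of the 59 windows (71.2%) and in 35.7% of all 32851 windows of the table. Below, 30 bases are given 5′ to 3′ on the coding strand, with the longest run of C or T in capitals. They are shown for 4 of the genes with the largest rises, for Rps6, whose change did not pass the test, and for Rpl3l.
Rps12: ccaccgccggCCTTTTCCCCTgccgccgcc
Rps9: caaccgccttgTCTCTCTTTgtctcgggcc
Rps7: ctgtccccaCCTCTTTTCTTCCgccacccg
Rps28: tctgtcccgaggaTTCCTgggtaccgcgtg
Rps6: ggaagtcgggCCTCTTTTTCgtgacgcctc
Rpl3l: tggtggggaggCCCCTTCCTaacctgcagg

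These stretches lie at chr10:23787182-23787211 on the minus strand for Rps12, chr7:3704024-3704053 on the plus strand for Rps9, chr12:28635911-28635940 on the minus strand for Rps7, chr17:33824567-33824596 on the minus strand for Rps28, chr4:86857349-86857378 on the minus strand for Rps6 and chr17:24727846-24727875 on the plus strand for Rpl3l. Rps12, Rps7 and Rps9, which rose, and Rps6, whose change did not pass the test, all had runs of 9 or more letters. The longest run near the annotated start of Rps28 had 5 letters. Rpl3l has a second annotated start, not shown, whose longest run had 4 letters. A run in the letters does not show that a transcript starts there. The ETS factor core CCGGAAG, on either strand of the 300 bases, was present in 33.9% of the members' windows against 8.86% of all, and GGGCGG, the SP1 box, in 55.9% against 35.7%. TATAAA was present in 10.2% against 13.6%, and AAGATGGC, the YY1 core, in 5.08% against 2.75%. Matches of different motifs may overlap.

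The arrays' median intensities lay between 139 and 147, and the number of arrays limits the precision. Mstn, tested as a check of the genotype labels, had a mean log2 intensity of 10.25 in untreated wildtype, 8.40 in overloaded wildtype, 8.93 in untreated Mstn-/- and 8.25 in overloaded Mstn-/- muscle, so that it separated the genotypes without load but not under load (limma adjusted p = 2.7e-08 and 0.39). Whether its probe set lies in the deleted stretch is not stated. Array 3 of the overloaded wildtype group stood apart, with the highest summed signal of the ribosomal protein genes and the lowest Rpl3l signal, and values without it are given where they bear on a result. All 9 myofibre markers, among them Acta1 and Ckm, had group means above the intensity of 98.9 used as the detection level in each of the 4 groups. Equal amounts of RNA were labelled, so a difference is one in a transcript's share of the muscle's RNA, and more cells of a type cannot be told apart from more RNA per cell.

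The first comparison asks what overload does to these transcripts in wildtype muscle. Ribosomal protein transcripts shifted upward as a group by small steps, with 1 gene going far the other way. Of the 61 genes tested, 31 were higher and 1 was lower under overload by limma at an adjusted p of 0.05, where 30.3% of all 14499 genes tested were higher and 35.6% lower (65.9% in all). The members' median log2 difference was 0.16, against -0.06 over all genes tested, and 48 of 61 lay above 0. The arrays of the 2 groups did not overlap for 22 genes that were higher and for Rpl3l, against 21.8% and 21.1% of all genes. Without overloaded wildtype array 3, 25 genes were higher and 1 lower. The summed signal of the 62 genes was 1.54 to 1.68% of that of all genes with a symbol in untreated wildtype, with a median of 1.59%, and 1.74 to 2.06% under overload, with a median of 1.87%.

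**Figure D1:**
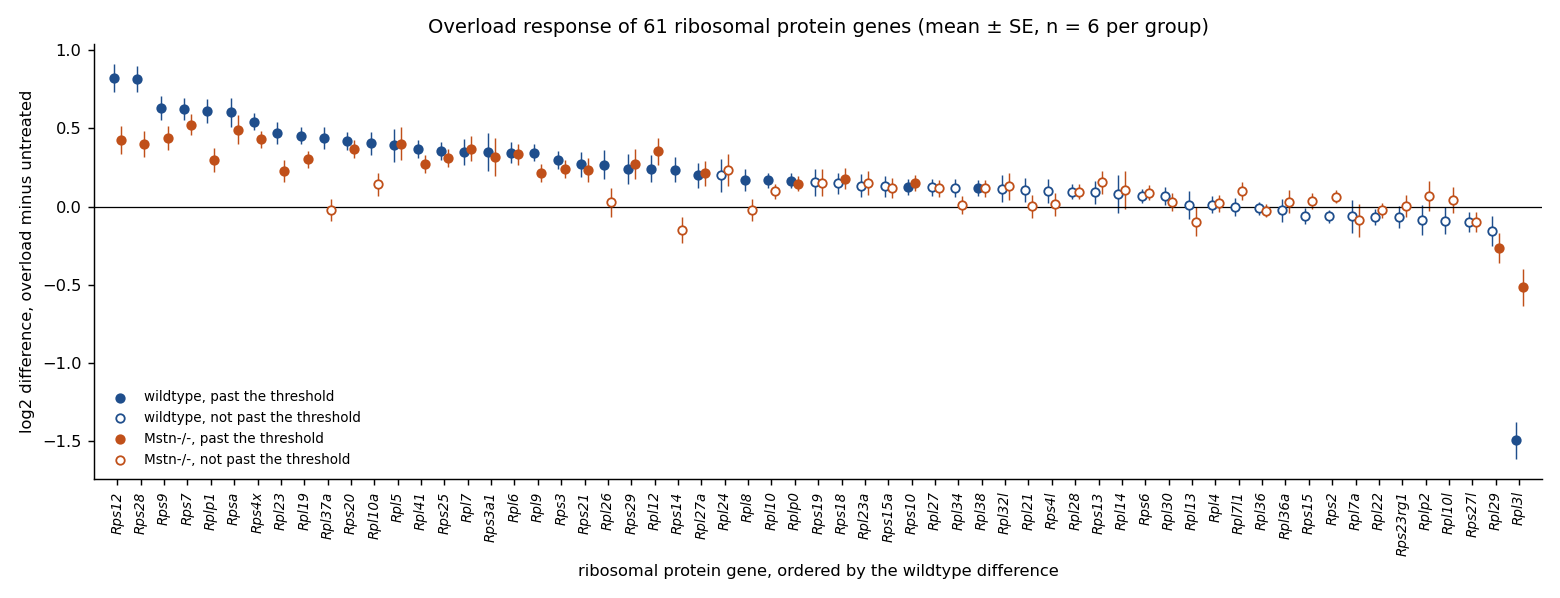
Log2 difference between overloaded and untreated muscle (y axis, mean ± SE, n = 6 arrays per group) for the 61 genes tested, ordered by the wildtype value (x axis). Blue is wildtype and orange Mstn-/-, filled points passed the limma test, and Rpl3l stands alone at the right end at -1.50 in wildtype and -0.52 in Mstn-/- muscle.

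Small-subunit genes held the 4 largest rises. Of 22 small-subunit genes 14 rose by limma and 8 did not pass the test, with a median log2 difference of 0.26. Of 31 large-subunit genes 15 rose and 16 did not pass, with a median of 0.13. The groups were formed by symbol. They include Rps23rg1 (small) and Rpl32l (large), whose symbols have a further ending and which are named here after their values were seen. Neither passed, at -0.07 and 0.11. Whether the subunits differ was not tested.

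Rps12, which encodes a protein of the small subunit's head, had log2 intensities from 9.33 to 9.66 (median 9.58) in untreated and from 10.05 to 10.78 (median 10.32) in overloaded wildtype muscle. Every overloaded array lay above every untreated one, and the highest was array 3. The difference was 0.82 ± 0.09 on the log2 scale (SE, n = 6 per group), a 1.77-fold rise (limma adjusted p = 8.5e-09). Rps28, another head protein that lies near the path of the messenger RNA, went from 9.70 to 9.96 (median 9.80) untreated to 10.35 to 10.96 (median 10.59) overloaded. Again no array of 1 group reached into the other, and the rise was 1.76-fold (log2 0.82 ± 0.08, adjusted p = 2.5e-09).

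Rps9, a protein at the messenger RNA entry channel, rose 1.55-fold, from 9.26 to 9.54 (median 9.37) up to 9.76 to 10.26 (median 10.07), with adjusted p = 5.5e-08. Rps7 rose 1.54-fold, from 10.02 to 10.31 (median 10.25) up to 10.62 to 11.09 (median 10.78), with adjusted p = 1.2e-08. Rpsa, which sits near the messenger RNA exit and is also known as the laminin receptor, rose 1.52-fold, from 10.47 to 10.67 (median 10.63) up to 10.95 to 11.50 (median 11.18), with adjusted p = 2.1e-06. For each of these 3 genes the overloaded arrays all lay above the untreated ones. Among the 10 measured genes whose products form the head of the small subunit, 7 rose, 3 did not pass, and the median was 0.27. With each gene's probe sets averaged in place of the brightest, the log2 rises of Rps12, Rps7 and Rpsa were 0.44, 0.37 and 0.35 and still passed. Rps15 and Rps19, both in the head, did not pass, at log2 differences of -0.06 and 0.16 (adjusted p = 0.31 and 0.11). Rps18, the other head gene that did not pass, was higher with averaged probe sets (0.31, limma adjusted p = 3.9e-04). Of the head genes counted as risen, Rps25 no longer passed when averaged (0.15, limma adjusted p = 0.11).

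The acidic stalk of the large subunit, which recruits elongation factors, moved unevenly. Its tip protein gene Rplp1 had log2 intensities from 12.09 to 12.38 (median 12.25) in untreated and 12.53 to 13.11 (median 12.92) in overloaded wildtype muscle. The groups did not overlap, and the rise was 1.53-fold (log2 0.61 ± 0.08, limma adjusted p = 9.2e-08). Rplp0, the base of the stalk, rose 1.12-fold without overlap, from 12.76 to 12.92 (median 12.82) up to 12.95 to 13.08 (median 12.98), with adjusted p = 0.0038. Rplp2, the partner of Rplp1 at the tip, gave 7.70 to 8.26 (median 7.98) and 7.76 to 8.11 (median 7.85). These ranges overlapped widely, and the log2 difference of -0.09 had a 95% confidence interval from -0.28 to 0.11 (adjusted p = 0.43).

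Rpl5, which with Rpl11 carries the 5S ribosomal RNA into the large subunit, rose 1.31-fold, from 10.39 to 11.15 (median 10.91) up to 10.84 to 11.47 (median 11.28), with limma adjusted p = 0.0019. Its untreated wildtype arrays were among the most scattered, and the groups overlapped. At the exit of the peptide tunnel, 2 of 4 measured genes rose, Rpl19 by 0.45 and Rpl26 by 0.27 on the log2 scale (adjusted p = 2.8e-08 and 0.014), both without overlap. With averaged probe sets the rise of Rpl19 was 0.23 and passed. Rpl22 and Rpl23a did not pass, at -0.07 and 0.13 (adjusted p = 0.24 and 0.12). Rps6, the substrate of the S6 kinases, gave 13.56 to 13.76 (median 13.66) untreated and 13.64 to 13.82 (median 13.70) overloaded. Those ranges overlapped, and the log2 difference was 0.07 with a 95% confidence interval from -0.03 to 0.16. Taken one by one, the 7 probe sets of Rps6 ran from -0.06 to 0.13, with 2 higher. Rps6 and Rplp0 had the probe sets with the highest signals and Rpl7a and Rpl39l those with the lowest, which says nothing about the genes' levels relative to each other. Rpl7a differed by -0.06 (interval -0.28 to 0.15), and Rpl39l, with group means from 4.62 to 4.75, lay below the detection level throughout and was not tested.

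By the brightest probe sets, Rpl3l was the single gene of the 61 that fell in wildtype muscle. Its log2 intensity was 10.96 to 11.18 (median 11.03) untreated and 8.76 to 9.88 (median 9.66) overloaded. All 6 overloaded arrays lay more than 1 log2 unit below the lowest untreated array, and array 3 was the lowest. The fall was 2.82-fold (log2 -1.50 ± 0.12, SE, n = 6 per group, limma adjusted p = 2.6e-11), and without array 3 the log2 difference was -1.34. Rpl3, which Rpl3l replaces in ribosomes of adult muscle, was not analysed here because its probe sets carry several symbols, so the balance of this pair was not measured.

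**Figure D2:**
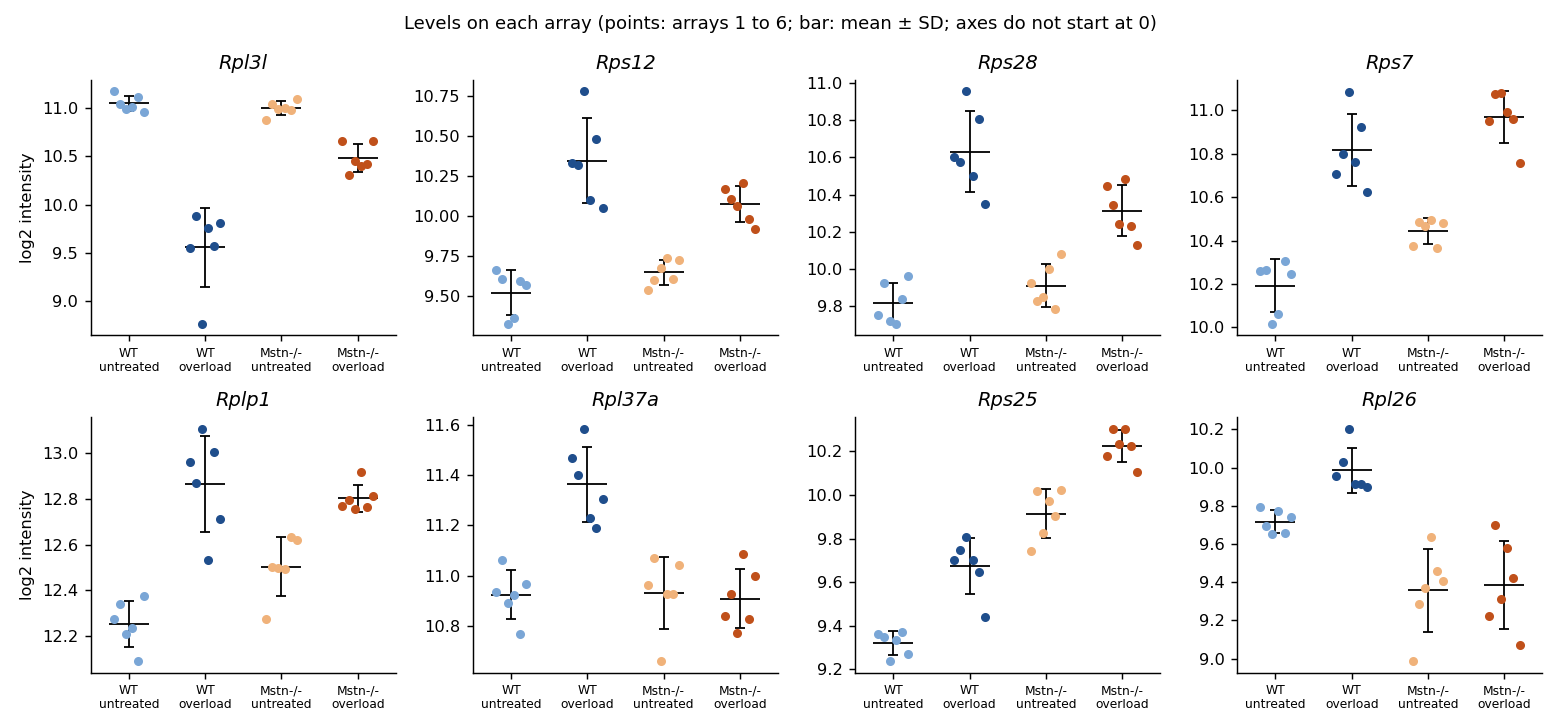
Log2 intensity on each array (y axis) in the 4 groups (x axis) for 8 genes; points are arrays and bars the mean ± SD of 6 arrays. Rpl3l drops from about 11 in both untreated groups to a median of 9.66 in overloaded wildtype and 10.44 in overloaded Mstn-/- muscle, while Rps25 and Rpl26 differ between genotypes with and without load.

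Markers of some other cell types moved with these rises. Of 18 macrophage markers 17 were higher in overloaded wildtype muscle, and their summed intensity went from 4016 to 5400 untreated up to 19251 to 29097. All 10 measured fibroblast and fibro-adipogenic progenitor markers were higher, with sums from 15256 to 21216 and from 49431 to 59172, as were 7 of 8 tested proliferation genes, with sums from 1542 to 1721 and from 2646 to 3430. Of 9 myofibre markers 6 were lower, with sums from 106761 to 108856 untreated and from 74474 to 90294 overloaded. Of 7 endothelium markers 5 were higher and 1 lower, and of 7 satellite cell and myoblast markers 3 were higher and 1 lower. Of 3 tested lymphocyte markers 2 were higher, and of 3 Schwann cell markers none passed. The part of these shifts in the ribosomal protein results was not tested.

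The same comparison in Mstn-/- muscle asks how overload acts where myostatin is absent. An upward shift was present here too. Of the 61 genes 25 were higher and 2 lower by limma, where 27.1% and 33.5% of all genes were (60.6% in all), and the median log2 difference was 0.13 against -0.06 over all genes. The groups did not overlap for 10 genes that were higher and 1 that was lower, against 19.8% and 20.1% of all genes. The share of members higher without overlap was thus not above that of all genes. Overloaded Mstn-/- array 6 had the lowest ribosomal protein signal of its group, and without it 30 genes were higher and 1 lower. The summed signal was 1.59 to 1.68% (median 1.62%) untreated and 1.67 to 1.94% (median 1.83%) overloaded, with 1 overloaded array inside the untreated range. Summed macrophage markers went from 5598 to 7114 up to 12960 to 25787, and myofibre markers from 107610 to 116265 to 103175 to 109360, and their part in the result was not tested.

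**Figure D3:**
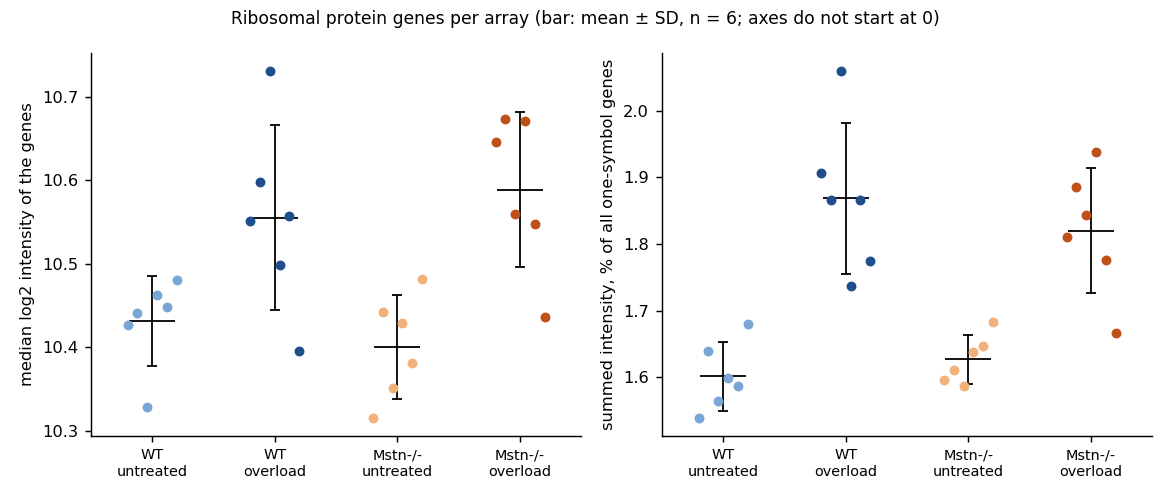
Median log2 intensity of the ribosomal protein genes (left) and their summed intensity as a percentage of all genes with a symbol (right) on each array, by group; bars give the mean ± SD of 6 arrays. The summed share lies between 1.54 and 1.68% in untreated and 1.74 and 2.06% in overloaded wildtype muscle.

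Rps7 led the rises in Mstn-/- muscle, from 10.37 to 10.50 (median 10.47) untreated up to 10.76 to 11.08 (median 10.97) overloaded, 1.44-fold (limma adjusted p = 4.0e-07). Rpsa rose 1.41-fold, from 10.11 to 10.31 (median 10.28) up to 10.55 to 11.17 (median 10.71), with adjusted p = 5.0e-05. Neither gene's groups overlapped. Rps9, Rps4x, Rps12 and Rps28 rose by 0.44, 0.43, 0.43 and 0.40 on the log2 scale, each without overlap, with standard errors from 0.05 to 0.09. Rpl5 rose by 0.40, Rplp1 by 0.30 and Rplp0 by 0.14, and Rplp2 did not pass, at 0.07 (interval -0.13 to 0.26). With averaged probe sets Rplp0 no longer passed (0.075, adjusted p = 0.17), and Rps7, Rpsa and Rps12 still rose, by 0.35, 0.22 and 0.22.

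Rpl3l fell in Mstn-/- muscle too, from 10.88 to 11.10 (median 11.00) untreated to 10.31 to 10.66 (median 10.44) overloaded, without overlap. The fall was 1.43-fold (log2 -0.52 ± 0.12, limma adjusted p = 5.4e-04). Rpl29, a small basic protein of the large subunit, was the other gene that fell, from 9.09 to 9.46 (median 9.24) to 8.61 to 9.22 (median 9.05), with overlap between the groups. Its log2 difference of -0.26 had adjusted p = 0.021, and the call was lost without untreated Mstn-/- array 6 (-0.22, adjusted p = 0.058) or without overloaded Mstn-/- array 6 (-0.19, adjusted p = 0.072).

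The wildtype and Mstn-/- overload comparisons share no array. Of the members, 24 were higher in both, which is 77.4% of the 31 higher in wildtype and 96.0% of the 25 higher in Mstn-/- muscle, and 50 of 61 differences (82.0%) had the same sign. Over all genes tested, the shares higher in both were 78.3% and 87.6%, and 86.4% had the same sign. Across the 61 genes Pearson's r between the log2 differences was 0.83, and 0.81 without Rpl3l, against 0.91 over all 14499 genes. These are descriptions across genes of the same arrays, which are not independent replicates.

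The difference between the 2 responses asks whether loss of myostatin changes the reaction to overload. By limma 6 of the 61 members passed, 1 with a higher and 5 with a lower response in Mstn-/- than in wildtype muscle, where 8.92% and 8.44% of all genes did (17.4% in all). The share of members with a lower response, 8.20%, was near that of all genes. Rpl3l fell less in Mstn-/- muscle, at -0.52 against -1.50 on the log2 scale, a difference of 0.98 ± 0.17 (adjusted p = 2.3e-04). Rpl37a, a zinc-binding protein of the large subunit, rose in wildtype from 10.77 to 11.06 (median 10.93) up to 11.19 to 11.58 (median 11.35). In Mstn-/- muscle its arrays lay from 10.66 to 11.07 (median 10.95) untreated and from 10.77 to 11.09 (median 10.88) overloaded, over nearly the same range. The responses of 0.44 and -0.02 differed by -0.46 ± 0.10 (adjusted p = 0.0027).

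Rps28 and Rps12 rose in both genotypes and less in Mstn-/- muscle, by differences of -0.41 ± 0.12 and -0.40 ± 0.13 (limma adjusted p = 0.015 and 0.031). Rps14, a protein of the small subunit's platform named here after its values were seen, responded by 0.24 in wildtype and -0.15 in Mstn-/- muscle, a difference of -0.39 ± 0.12 (adjusted p = 0.022), and only the wildtype value passed the test. Rplp1 responded by 0.61 and 0.30, a difference of -0.31 ± 0.11 (adjusted p = 0.046). This last call was lost in 21 of 34 alternative settings, and that of Rps12 in 8 of 34, among them leaving out untreated wildtype array 3 (-0.36, adjusted p = 0.055) and averaging the gene's probe sets (-0.23, adjusted p = 0.16). Averaging also ended the call of Rps14 (-0.33, adjusted p = 0.071). For Rplp1 the value without overloaded wildtype array 3 was -0.26 (adjusted p = 0.088). With that array left out 4 members had a lower response. Of the other arrays, leaving out untreated wildtype 3 or 4, overloaded wildtype 5, untreated Mstn-/- 4 or 6 or overloaded Mstn-/- 5 or 6 left 3. Of the 18 macrophage markers 10 also had a lower response in Mstn-/- muscle, as had 5 of 10 fibroblast markers, while 5 of 9 myofibre markers had a higher one, and their part in the result was not tested.

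The third comparison sets untreated Mstn-/- against untreated wildtype muscle, and members were called in both directions. By limma 11 of 61 were higher and 7 lower in Mstn-/- than in wildtype muscle, where 11.1% and 10.2% of all genes were (21.3% in all), and the median log2 difference was 0.00. The share of members that were lower was near that of all genes. With averaged probe sets 9 were higher and 4 lower. The groups did not overlap for 7 of the genes that were higher and 4 of those that were lower, against 6.53% and 5.47% of all genes. Of the 11, 6 belong to the small subunit, 4 to the large subunit and 1 to the stalk, and of the 7, 5 and 2 to the small and large subunits. Of 18 macrophage markers 7 were higher in untreated Mstn-/- muscle. Their sums ran from 4016 to 5400 in wildtype and from 5598 to 7114 in Mstn-/- muscle. Of 7 endothelium markers 4 were lower and 1 higher, and of 9 myofibre markers 2 were higher and 1 lower. The part of these marker shifts in the genotype differences was not tested.

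Rps25, a head protein known from studies of internal ribosome entry, had log2 intensities from 9.24 to 9.37 (median 9.34) in wildtype and 9.74 to 10.02 (median 9.94) in Mstn-/- muscle. The groups were far apart, and the level was 1.51-fold higher in Mstn-/- muscle (log2 0.59 ± 0.06, limma adjusted p = 4.0e-08). Rps4x, the X-linked form of Rps4, was 1.38-fold higher, at 9.68 to 9.88 (median 9.74) against 10.14 to 10.33 (median 10.21), with adjusted p = 6.6e-07. Rps20, a head protein, was 1.36-fold higher, at 10.66 to 11.02 (median 10.77) against 11.13 to 11.29 (median 11.25), with adjusted p = 3.8e-06. Neither pair of ranges overlapped. In the other direction Rps15, at 12.03 to 12.21 (median 12.14) in wildtype, was 11.61 to 11.82 (median 11.74) in Mstn-/- muscle. That is a 1.33-fold lower level without overlap (log2 -0.41 ± 0.05, adjusted p = 1.5e-06).

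Rpl26, a tunnel-exit protein also known to bind the p53 messenger RNA, was 9.65 to 9.79 (median 9.72) in wildtype and 8.99 to 9.64 (median 9.39) in Mstn-/- muscle. Its Mstn-/- arrays were scattered and all lay below the wildtype ones, a 1.28-fold difference (limma adjusted p = 0.0064). Rps19, the gene most often mutated in human Diamond-Blackfan anaemia, was 9.61 to 10.15 (median 9.86) against 9.28 to 9.81 (median 9.54), 1.27-fold lower with overlap (adjusted p = 0.0055). Rpl5 and Rplp1 were higher by 0.32 and 0.25 on the log2 scale (adjusted p = 0.031 and 0.020). Averaging the probe sets ended the call of Rpl5 (0.22, adjusted p = 0.069). Leaving out untreated wildtype array 3 or 4 or untreated Mstn-/- array 3 ended the call of Rpl5, with adjusted p from 0.072 to 0.099. Leaving out untreated wildtype array 5 or untreated Mstn-/- array 5 or 6 ended that of Rplp1, with adjusted p from 0.051 to 0.056.

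Under overload, the genotypes differed in 27 of 61 members by limma, 11 higher and 16 lower in Mstn-/- muscle, where 17.5% and 19.0% of all genes were (36.5% in all), and the median log2 difference was -0.01. The share of members that were higher, 18.0%, was near that of all genes, and 26.2% were lower. Without overloaded wildtype array 3, 12 were higher and 11 lower, and with averaged probe sets 9 and 10. Of the lower members, the calls of Rpl28, Rpl34, Rpl41, Rps10 and Rps12, named after their values were seen, ended without that array. The same calls ended without overloaded Mstn-/- array 6, which likewise left 12 higher and 11 lower. The groups did not overlap for 4 members in either direction, which is near the shares of all genes, 7.06% higher and 8.46% lower. Rpl3l was 1.90-fold higher in Mstn-/- muscle (log2 0.93 ± 0.12, adjusted p = 1.2e-06), its lowest Mstn-/- array at 10.31 above the highest wildtype array at 9.88. Rps25, at 9.44 to 9.81 (median 9.70) in wildtype and 10.11 to 10.30 (median 10.23) in Mstn-/- muscle, was again higher without overlap, 1.46-fold (adjusted p = 8.9e-08). Rps20 was higher by 0.39 without overlap (adjusted p = 1.1e-05). In the other direction Rpl26 was 9.90 to 10.20 (median 9.93) in wildtype and 9.07 to 9.70 (median 9.37) in Mstn-/- muscle, 1.52-fold lower without overlap (adjusted p = 1.6e-05). Rpl37a and Rpsa were each lower by 0.45 on the log2 scale (adjusted p = 2.5e-05 and 3.8e-04), Rpl37a without and Rpsa with overlap. With averaged probe sets Rpsa was lower by 0.14 under load and by 0.01 without it, and passed in neither case (adjusted p = 0.12 and 0.92). Fibroblast markers were lower in 8 of 10 cases and macrophage markers in 5 of 18 on the overloaded Mstn-/- arrays, and 7 of 9 myofibre markers were higher, and their part in these differences was not tested.

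The untreated and the overloaded genotype comparisons share no array. Of the members 7 were higher in both and 7 lower in both, which is 63.6% of the 11 higher in each comparison, 100% of the 7 lower without load and 43.8% of the 16 lower under load. Over all genes, 51.1% of those higher without load and 32.5% of those higher under load were higher in both. For lower genes these shares were 38.6% and 20.7%. Rps25, Rps4x, Rps20, Rpl5, Rpl6, Rps3 and Rpl27 were the 7 higher in both, and Rpl26, Rps15, Rps19, Rpsa, Rps18, Rps10 and Rpl28 the 7 lower in both. These names were listed after the values were seen. With averaged probe sets 6 were higher in both, without Rpl5, and 3 lower in both, which were Rpl26, Rps15 and Rps19. Rpl26, Rps19, Rps20 and Rps3 have 1 probe set each, so averaging could not change their values. Of the lower genes with several probe sets, Rps15 alone passed in both. Without overloaded wildtype array 3, Rpl28 and Rps10 were no longer lower in both (adjusted p under load = 0.059 and 0.10). Leaving out overloaded Mstn-/- array 6 also ended both calls under load. Leaving out single arrays ended the call of Rpl28 in 7 of 24 cases without load and 3 under load, of Rps10 in 2 and 6, and of Rpl27 in 7 and 4. Pearson's r between the log2 differences of the 61 genes was 0.67, and 0.80 without Rpl3l, against 0.42 over all 14499 genes, again as a description across genes.

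**Figure D4:**
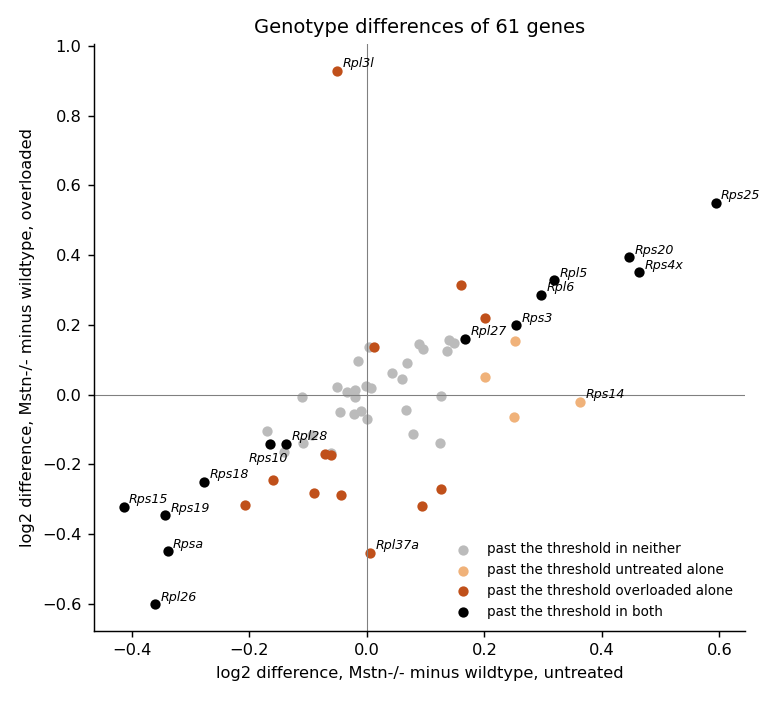
Log2 difference between Mstn-/- and wildtype muscle without load (x axis) and under load (y axis) for the 61 genes tested; colours show in which comparison a gene passed the limma test. Rps25 lies at 0.59 and 0.55 and Rpl26 at -0.36 and -0.60, while Rpl3l lies at -0.05 and 0.93.

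Paralog pairs with both genes measured could be compared on each array, as the difference of log2 intensity between the general gene and its paralog, in 3 pairs and 4 comparisons. Only changes of this balance between groups are given, since the signals of 2 probe sets have no common scale. Two-sided exact permutation tests over 6 against 6 arrays, with p adjusted over the 12 tests, can reach an unadjusted p of 0.00216 at the lowest. The balance of Rps4x over Rps4l, a retained copy of the gene, shifted toward Rps4x by 0.44 in wildtype and 0.42 in Mstn-/- muscle under overload (adjusted p = 0.010 and 0.0065). It was also higher in Mstn-/- than in wildtype muscle, by 0.62 untreated and 0.60 overloaded (adjusted p = 0.0065 for both). Rpl7 over Rpl7l1 shifted by 0.35 in wildtype and 0.27 in Mstn-/- muscle under overload and by 0.18 between the untreated genotypes (adjusted p = 0.0065, 0.045 and 0.045). Rpl10 over Rpl10l, a paralog known from the testis, shifted by 0.26 in overloaded wildtype muscle (adjusted p = 0.013), and in Mstn-/- muscle its shift of 0.06 did not pass (adjusted p = 0.69). By limma on the brightest probe set, the paralogs Rps4l, Rpl7l1 and Rpl10l themselves passed in neither overload comparison, and Rpl7, Rpl10 and Rps4x were higher in wildtype. With each gene's probe sets averaged in place of taking the brightest, both overload shifts of Rps4x over Rps4l fell to 0.21 and 0.23 and no longer passed (adjusted p = 0.078 and 0.057), nor did that of Rpl10 over Rpl10l (0.19, adjusted p = 0.057). The shifts of Rpl7 over Rpl7l1 in overloaded Mstn-/- muscle and between the untreated genotypes did not pass either (adjusted p = 0.13 and 0.0965). For each of these shifts, leaving out most single arrays of the groups compared ended the call. Rps4l itself passed in wildtype when averaged (0.20, adjusted p = 0.012), and 1 of its 2 probe sets was higher under overload in each genotype, by 0.30 and 0.24.

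Many ribosomal protein genes have processed copies in the genome, and 38 of the 62 have several probe sets with that 1 symbol, up to 10 for Rpl23a. Of the members' 194 probe sets 183 were bright enough to test. Taken one by one in the same fit, 46.4% of them were higher and 3.83% lower in overloaded wildtype muscle, against 30.5% and 35.4% of all 15749 probe sets tested. At least 1 probe set was higher for 37 genes and lower for 4, which were Rpl3l and, named after their values were seen, Rpl13, Rpl24 and Rpl36. No gene had probe sets called in both directions in the overload comparisons. Between the overloaded genotypes 2 genes did. Rpl28 had 1 probe set higher and 2 lower in Mstn-/- muscle, and Rpl38 had 1 in each direction. Probe sets of the same gene differed in size, as Rps12 ran from 0.08 to 0.82 over 6 tested probe sets, with 5 higher, and Rps28 from 0.30 to 1.01 over 5, all higher. For Rpl36 the brightest probe set gave -0.01, while the 8 ran from -0.65 to -0.01 with 4 lower. With its probe sets averaged, Rpl36 also fell in overloaded wildtype muscle (log2 -0.23, limma adjusted p = 0.0014). Rps25 ran from -0.35 to 0.64 with 2 of 6 higher, and between the untreated genotypes 4 of its 6 were higher in Mstn-/- muscle. Rpl3l has a single probe set. Which probe sets read the functional gene and which a copy was not tested.

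**Figure D5:**
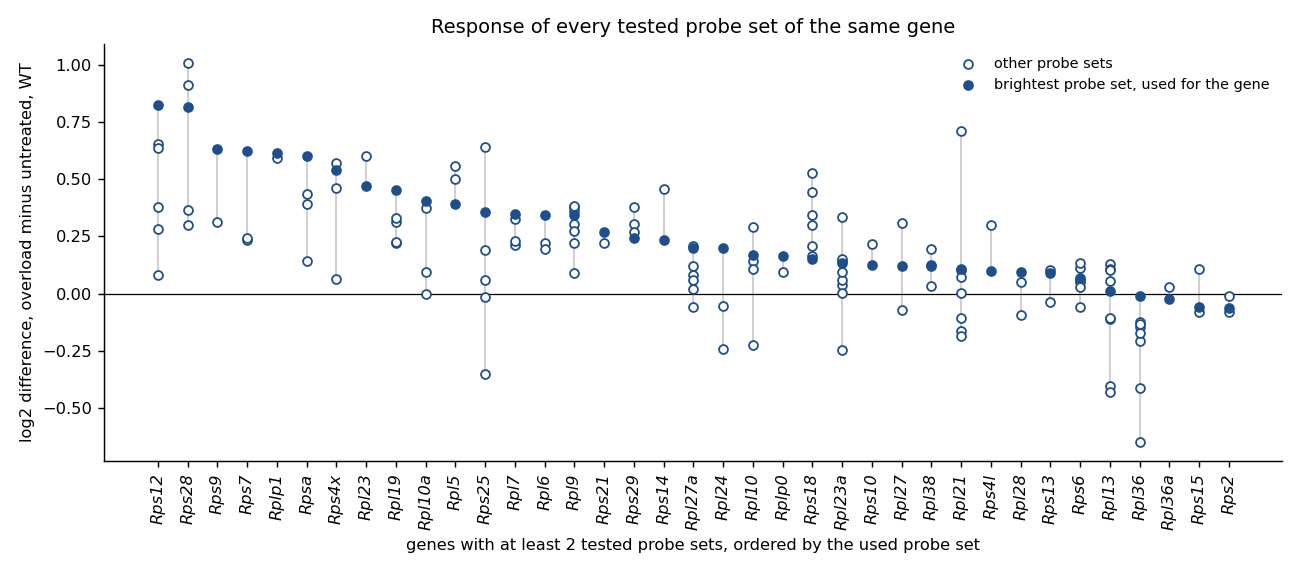
Log2 difference between overloaded and untreated wildtype muscle (y axis) for every tested probe set of the genes with at least 2 of them (x axis), with the probe set used for the gene filled. The probe sets of Rps12 run from 0.08 to 0.82 and those of Rpl36 from -0.65 to -0.01.

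Other genes of translation were called in both directions, in lists chosen with earlier results of these data known. Of all genes tested, 30.3% were higher and 35.6% lower in overloaded wildtype muscle, and 27.1% and 33.5% in overloaded Mstn-/- muscle. Some genes, Pabpc1, Eef1a1 and Eif4b among them, belong to more than 1 of these lists. Fau, which encodes ribosomal protein S30 fused to a ubiquitin-like domain, rose by 0.45 in wildtype and 0.33 in Mstn-/- muscle (limma adjusted p = 2.0e-06 and 1.6e-04). Of 14 other genes known for TOP transcripts 7 rose and 1 fell in wildtype, with a median of 0.06, and 5 rose and 1 fell in Mstn-/- muscle, with a median of -0.03. Eef1a1, which delivers aminoacyl-tRNA to the ribosome, rose 2.31-fold and 1.94-fold in the 2 genotypes, and Pabpc1, the cytoplasmic poly(A)-binding protein, 2.02-fold and 1.52-fold. Eif4b, a helicase cofactor, fell by 0.38 and 0.42 on the log2 scale. Of 7 elongation genes 3 rose and 3 fell in wildtype. The muscle form Eef1a2 fell by 0.39 in wildtype and did not pass in Mstn-/- muscle (-0.08, adjusted p = 0.44), and Eef2k, the kinase that inhibits elongation factor 2, fell by 0.56 and 0.69.

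Of 31 initiation factor genes 5 rose and 18 fell in wildtype muscle, with a median of -0.19, and 4 rose and 15 fell in Mstn-/- muscle, with a median of -0.12. The shares that fell were 58.1% and 48.4%, against 35.6% and 33.5% of all genes. Eif4a1, an RNA helicase of the cap-binding complex, rose by 0.63 and 0.52, while Eif2s2 and Eif1ax, both needed to place the first tRNA, fell by 0.74 and 0.54 in wildtype (limma adjusted p = 4.3e-09 and 6.9e-09). Among 19 genes of mTORC1 and S6 kinase signalling 2 rose and 11 fell in wildtype, with a median of -0.30, and 3 rose and 12 fell in Mstn-/- muscle, with a median of -0.31. Here 57.9% and 63.2% fell, against the same shares of all genes. Myc, a transcription factor that drives ribosome production, rose 1.70-fold and 1.76-fold, and Pdcd4, an inhibitor of Eif4a1, rose by 0.31 and 0.36. Rragd, a GTPase of the amino acid branch of mTORC1, fell 2.67-fold and 1.88-fold, and Eif4ebp2, a repressor of cap-dependent translation, fell 1.88-fold and 1.54-fold. Arrays measure transcript levels and not kinase activity or protein.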

How the data were processed

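RNA of 24 plantaris muscles, 6 in each of 4 groups taken from the labels, was measured on whole-transcript arrays after removal of ribosomal RNA. The deposited values are RMA intensities per probe set on a linear scale, and RMA is named without a version in the submitters' processing notes. From the authors' deposited intensities log2 was taken without a pseudocount. Of 34760 probe sets 21640 carry exactly 1 gene symbol, 1321 several and 11799 none, by the platform annotation. All 62 members matched a RefSeq table of GRCm38.p6 by gene ID and symbol, and no build is stated for the platform annotation. Where a gene had several probe sets, that with the highest mean over the 24 arrays stood for it. A gene was tested if at least 1 group mean exceeded the 30th percentile of annotated probe sets (intensity 98.9), which left 14499 genes.

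Limma 3.58.1 in R 4.3.3 was fitted to all arrays with 1 mean per group (20 residual degrees of freedom), with eBayes and Benjamini-Hochberg adjustment over all genes tested and a threshold of 0.05. The script was tested on simulated data with 200 changed genes. Paralog balances used exact permutation tests (scipy 1.17.1). The members and lists were chosen with earlier results of these data known. The text names the 6 largest rises and falls in each overload comparison and the 3 largest in each other comparison, the paralog pairs, the stalk and 5S genes, the 2 brightest and 2 dimmest members and, of the other lists, the 2 genes with the smallest adjusted p in each direction. Other names are marked as chosen after their values were seen or complete a list. Alternatives were another normalization, other filters, an added constant, all probe sets, other variance models, array weights, a replicate block and each array left out. Same-numbered arrays did not deviate together (correlations from -0.41 to 0.36, and 4 of 24 arrays closest to their own number), so the numbers were not taken as pairs.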

Additional observations from a re-analysis of the deposited data

Results flagged for a closer look

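In the 26 genes named by rule, 104 sets of 6 arrays were searched for an array far from the rest, and 9 held one, where chance alone marks about 1 in 20. Overloaded wildtype array 3 was such an array for Rpl3l, at 8.76 with the next at 9.55, and for Rpl10, at 12.83 with the next at 12.68. Without it the fall of Rpl3l in wildtype was -1.34 on the log2 scale. Overloaded wildtype array 1 was highest for Rpl39l, at 4.91 with the next at 4.72, below the detection level. Untreated Mstn-/- array 3 was lowest for Rpl37a (10.66, next 10.93) and Rpsa (10.11, next 10.25) and highest for Rpl5 (11.33, next 11.18). Overloaded Mstn-/- array 6 was lowest for Rplp2 (7.78, next 8.20) and Rps4x (10.41, next 10.65), and array 4 of that group highest for Rplp1 (12.92, next 12.81).

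The overload response differed between genotypes, Mstn-/- minus wildtype on the log2 scale by the interaction term of limma, by 0.98 for Rpl3l, -0.46 for Rpl37a, -0.41 for Rps28, -0.40 for Rps12, -0.39 for Rps14 and -0.31 for Rplp1. The adjusted p for Rplp1 was 0.046.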

How the results depend on the processing

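The upward shift under overload kept its direction and the count of higher members stayed within 1.5 times in every alternative run, from 25 to 34 in wildtype and 22 to 30 in Mstn-/- muscle when each array was left out in turn. Shifting the arrays to a common median left 27 members higher in wildtype, and to a common 90th percentile 35. Counts of lower members moved more. With the probe sets of each gene averaged they were 2 in overloaded wildtype, 4 between the untreated and 10 between the overloaded genotypes, in place of 1, 7 and 16, and with every probe set on its own, an alternative chosen after seeing the data, 4 and 11 genes had at least 1 lower probe set in the first and second of these comparisons. Leaving out each array in turn gave 1 to 3 lower members in overloaded Mstn-/- muscle and 3 to 6 members with a lower response in Mstn-/- muscle. Of 10599 values of single members under the alternatives 189 lost and 111 gained the call, and 1 turned: Rpl27a under overload in Mstn-/- muscle was -0.00578 with averaged probe sets and 0.21 with the brightest. With the replicate block 31 and 25 members were higher under overload in wildtype and Mstn-/- muscle, as without it, and 1 and 4 had a higher and lower response in Mstn-/- muscle. The paralog balances depend more on the setting. With averaged probe sets, Rpl7 over Rpl7l1 was 0.237 in overloaded Mstn-/- muscle and 0.161 between the untreated genotypes, Rps4x over Rps4l 0.211 and 0.233 under overload in wildtype and Mstn-/- muscle, and Rpl10 over Rpl10l 0.188 in overloaded wildtype, none of them past the threshold. The paired sign-flip test with the replicate block gave adjusted p of 0.0625 at the lowest, so that none passed: Rpl7 over Rpl7l1 at 0.355, 0.273 and 0.178 in the comparisons of the text, Rpl10 over Rpl10l at 0.260, and Rps4x over Rps4l at 0.442, 0.416, 0.622 and 0.596. With 6 pairs this sign-flip test cannot reach p as small as the permutation test. The loss of these calls therefore does not decide whether the balances depend on the pairing. With another quantile normalization Rpl10 over Rpl10l passed between the overloaded genotypes at -0.246 (adjusted p = 0.036). With single arrays left out, which makes smaller p harder to reach, that balance ran from -0.267 to -0.154 and passed without overloaded Mstn-/- array 2 (-0.267, adjusted p = 0.022). Rpl7 over Rpl7l1 ran from 0.225 to 0.349 under overload in Mstn-/- muscle and from 0.147 to 0.226 between the untreated genotypes. Most single arrays of the groups compared, when left out, ended the call. Where no cause is given it was not tested. How near the brightest were to saturation was not tested.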
